A study of Mus musculus with 4 samples.

Results

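Aminoacyl-tRNA synthetases are the enzymes that attach each amino acid to its transfer RNA. Their genes were taken here as a list of 36 symbols: 20 for the enzymes of the cytosol and 16, written with a final 2, for those of the mitochondrion. All 36 were found among the 21690 features of the deposited expression tables, all 36 had a usable test in each of the 3 tables, and all 36 had a mean of at least 1 FPKM (a read level corrected for library size and for gene length), so no member was lost to a filter on low values. The members were chosen by function and not by their values.

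The RNA came from neural precursors grown from A2lox, a mouse embryonic stem cell line, in clonal cells that carry a doxycycline-inducible knockdown of Geminin. The knockdown group holds 3 libraries from independent experiments, which received 500 ng doxycycline from day 3 of culture in N2B27, a serum-free medium, and were harvested on day 5. The control group is 1 library of the same cells without doxycycline, also harvested on day 5. Its title carries the replicate number 1, which only knockdown library 1 shares. Since the knockdown libraries come from independent experiments, not every one of them has a control from its own experiment. For those, a difference between experiments cannot be told apart from an effect of doxycycline or knockdown. All 4 libraries share the line, the inducible construct and the earlier growth on feeder fibroblasts, and a culture with doxycycline but no construct was not analysed here, so the drug and the knockdown cannot be told apart.

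Charging a transfer RNA is the step at which the genetic code is read, because a synthetase pairs its amino acid with the transfer RNAs that carry the matching anticodons. The cytosolic enzymes serve the bulk of protein synthesis, and several of them sit together in a multi-synthetase complex held by scaffold proteins. The mitochondrial enzymes are also encoded in the nucleus, but they charge the transfer RNAs used to translate the few proteins of the mitochondrial genome. Gars and Kars encode both the cytosolic and the mitochondrial forms of their enzymes. Many cytosolic synthetase genes are known targets of ATF4, a transcription factor of the amino acid response that binds C/EBP-ATF response elements in promoters.

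Gmnn, which encodes Geminin and was the target of the knockdown, had 27.0, 65.9 and 27.9 FPKM in knockdown libraries 1, 2 and 3 and 113 in the control. It was lower in each knockdown library, and least so in library 2. Depth is known only relative to the control, at 1.00, 1.15 and 0.971 for libraries 1, 2 and 3. Libraries 2 and 3 stood apart from library 1: of the 8 of 11 measured markers of pluripotent cells that rose by the rule given below, Zfp42 had 4.68, 33.0 and 58.0 FPKM against 3.74. The summed level of those 11 markers was 94.3, 354 and 591 FPKM against 73.2 in the control. For 11 neuron markers, of which 4 rose, the sums were 164, 590 and 289 against 157. Not every neuron marker was higher. Among the 9 that passed the filter used below, the lowest log2 ratio of knockdown to control was -0.80, -0.57 and -0.71 in libraries 1, 2 and 3. For 12 feeder fibroblast markers, of which 3 rose, they were 34.2, 54.2 and 90.5 against 29.4. The 12 neural precursor markers summed to 1107, 1945 and 1704 FPKM against 1128, and all 12 were detected at a mean of at least 1 FPKM. Vim was the 1 member that rose, with 376, 1005 and 958 FPKM against 388, so most of the higher sum came from this gene. The lowest log2 ratio in this list was -1.07, -0.58 and -0.39 in libraries 1, 2 and 3. By the same rule 1.98% of all features that could be called rose and 0.905% fell. No marker in these lists was at 0 in all 4 libraries. Since these are bulk samples, more cells of a type and more RNA per cell cannot be told apart, and the part of such cells in the values below was not tested.

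In the control the 2 classes of enzyme lay at different levels, with a single exception. FPKM is a level per length, so genes can be compared with each other. Cytosolic members ranged from 42.2 FPKM for Farsa, a subunit of the phenylalanine enzyme, to 253 for Kars, the lysine enzyme, with a median of 80.1. Next after Kars were Gars, the glycine enzyme, at 142, Eprs, which carries both the glutamate and the proline activity, at 133, and Nars, the asparagine enzyme, at 128. Of the 16 mitochondrial members 15 lay below the lowest cytosolic one, from 2.69 FPKM for Mars2, the methionine enzyme, to 31.1 for Rars2, the arginine enzyme. The exception was Lars2, the mitochondrial leucine enzyme, listed at 841 FPKM, which was 27.1 times the level of Rars2 and made up 82.5% of the summed level of its class. The annotated Lars2 transcript of the mouse is known to carry a stretch near its 3′ end that resembles large-subunit ribosomal RNA, so the listed value may include reads of ribosomal RNA and cannot be read as the level of the enzyme's message alone. Ribosomal RNA was not analysed here, and its part in the value was not tested.

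**Figure D1:**
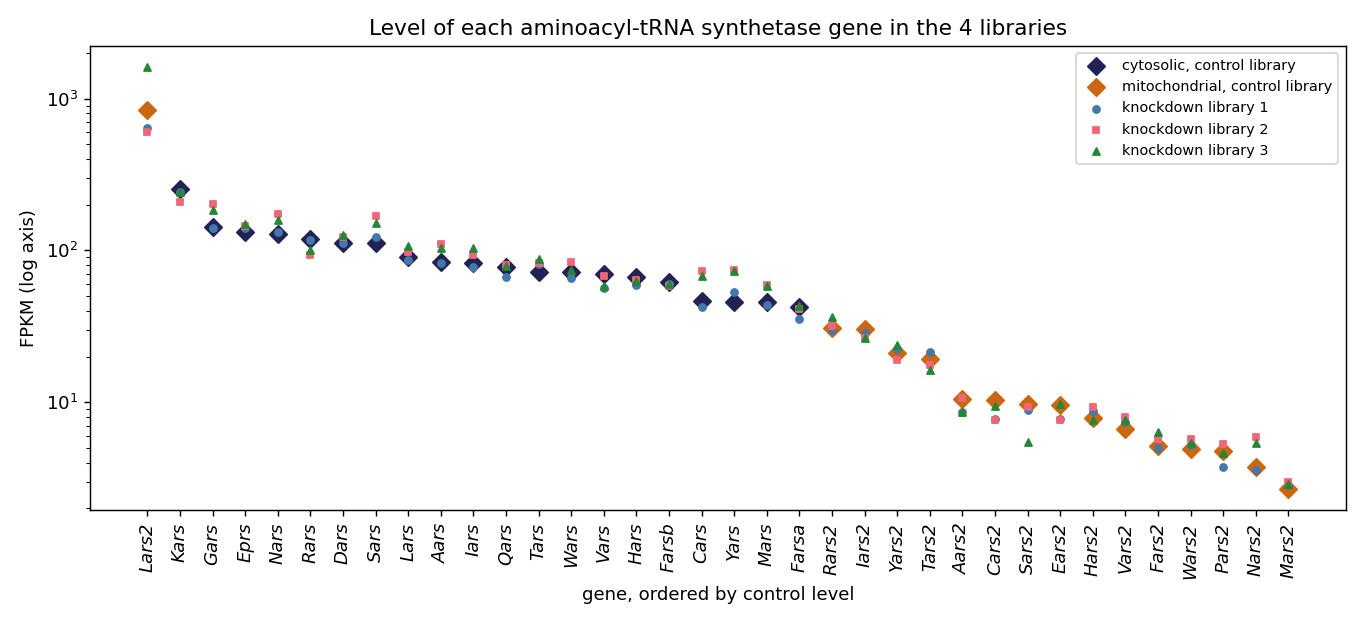
FPKM on a log axis for each of the 36 genes, ordered by the control level, with diamonds for the control (dark for cytosolic, orange for mitochondrial) and small symbols for the 3 knockdown libraries. Lars2 lies above every other gene, and the other mitochondrial genes, at 2.69 to 31.1 FPKM in the control, lie below the lowest cytosolic gene at 42.2.

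For 13 amino acids both an enzyme of the cytosol and one of the mitochondrion were on the list. The cytosolic gene had the higher control level in 12 of the 13 pairs, with a median ratio of 7.99 and a highest ratio of 34.1, for Nars over Nars2. The pair of leucine enzymes had the opposite order as listed, at a ratio of 0.108, which rests on the listed value of Lars2 and carries the same limit. Hars and Hars2, the histidine pair on chromosome 18, are neighbours whose listed spans are 74 bases apart (mm9), and Hars had 66.5 FPKM in the control against 7.82 for Hars2. The separation of the classes held in every knockdown library as well. The highest mitochondrial level other than that of Lars2 was 30.1, 31.6 and 36.5 FPKM in libraries 1, 2 and 3, and the lowest cytosolic level was 35.6, 41.2 and 43.4.

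The first question was which synthetase genes changed on knockdown. By the rule stated for the series, called the study's rule here, a feature is called when the authors' deposited tables mark it as significant (a Cuffdiff q-value under 0.05) in at least 2 of the 3 tables and in 1 direction. Yars, the cytosolic tyrosine enzyme, was the 1 member that met it, and it rose. That is 1 of 36 members, and 2.88% of the 14477 features that could be called met the rule (1.98% higher and 0.905% lower), so the share of members called was near that of all features. None of the mitochondrial members was called. A Cuffdiff p-value here speaks of a pair of libraries, not of the conditions, and the 3 tables share their control.

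Yars is listed on chromosome 4 from 128867038 to 128925687 (mm9), a span that it shares with C77080. It had 53.0, 74.8 and 73.4 FPKM in knockdown libraries 1, 2 and 3 against 46.1 in the control. All 3 knockdown values were above the control, with libraries 2 and 3 close together and library 1 nearer to the control. Relative to the control Yars stood at 115%, 162% and 159%, with a mean of 145% ± 26.5 (SD, n = 3). For Yars the authors' deposited tables gave a q-value of 0.345 in library 1, 0.0422 in library 2 and 0.0271 in library 3. The call was therefore lost without library 2 and without library 3, by construction, since both remaining tables then had to mark the gene. C77080 had 5.91, 6.17 and 6.21 FPKM against 6.77, so the other gene of the span was not higher in any library.

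Across the 3 libraries, limma on log2(FPKM + 1) gave Yars a change of 0.51 with a standard error of 0.24, which did not pass the threshold (Benjamini-Hochberg adjusted p = 0.999). Its adjusted p ranged from 0.378 to 1 over the alternative settings. In this test 0 of the 36 members were called, against 0.125% of 11968 features, and 0 had an unadjusted p under 0.05, against 1.27%. Gmnn, the target of the knockdown, was not called in this fit either. Its limma log2 change was -1.59 (unadjusted p = 0.0404, Benjamini-Hochberg adjusted p = 0.999). The lack of calls among the members therefore cannot be read as a lack of change. The fit has 2 residual degrees of freedom and assumes that the lone control varies like the knockdown libraries. The smallest p that an exact permutation test of 3 libraries against 1 could give is 0.25, so none was run.

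**Figure D2:**
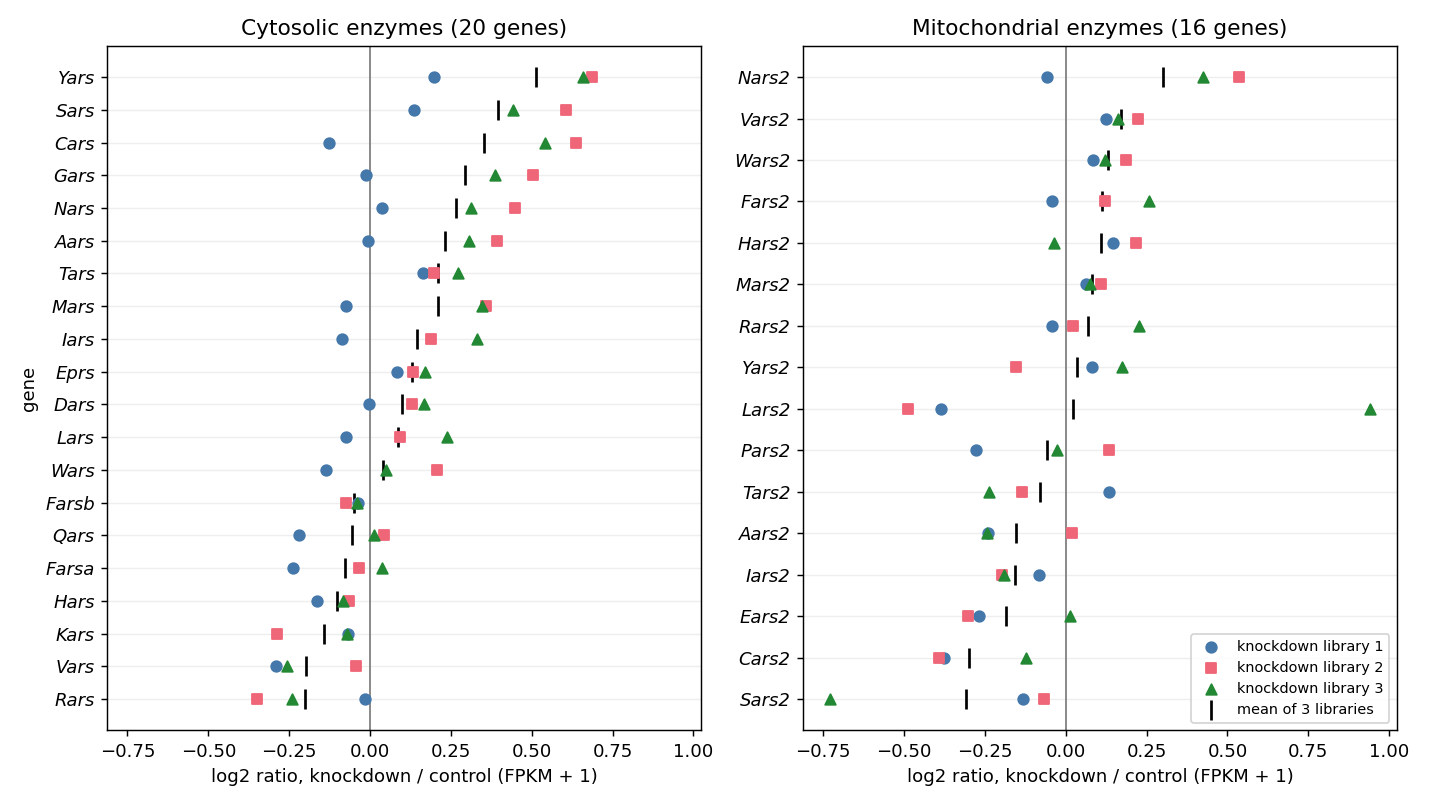
Log2 ratio of knockdown to control, on FPKM + 1, for each gene (rows) in the 3 knockdown libraries (coloured symbols), with the mean of the libraries as a black tick, cytosolic enzymes left and mitochondrial enzymes right. Yars has the highest mean among the cytosolic genes, and Lars2 is the gene whose libraries lie farthest apart.

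Among cytosolic members, next below Yars in the order of mean log2 ratio came Sars, Cars, Gars and Nars, none of which met the study's rule. Sars, the serine enzyme on chromosome 3, had 122, 170 and 151 FPKM against 111 in the control. Cars, the cysteine enzyme on chromosome 7, had 42.6, 73.0 and 68.3 against 46.6. In both genes libraries 2 and 3 were above the control, whereas library 1 was above it for Sars and below it for Cars. Gars had 141, 202 and 186 FPKM against 142, and Nars, on chromosome 18, had 131, 175 and 159 against 128. Relative to the control these 4 genes stood at 133% ± 21.6, 132% ± 35.2, 124% ± 22.3 and 121% ± 17.2 (SD, n = 3), in the order Sars, Cars, Gars and Nars. The unadjusted Cuffdiff p-value in the authors' deposited tables was under 0.05 in libraries 2 and 3 for Sars (0.0051 and 0.0252), Cars (0.00453 and 0.0079) and Nars (0.00431 and 0.0269). With Yars that makes 4 of the 20 cytosolic members and 0 of the 16 mitochondrial ones that were higher at this weaker limit in at least 2 tables, against 5.42% of all features. This limit was chosen after the values were seen, and the difference from the background was not tested. The Cuffdiff p-values of cytosolic members correspond to a median standard error of 0.151 and 0.139 natural log units in libraries 2 and 3. For mitochondrial members it was 0.274 and 0.263, so a mitochondrial gene needed a larger change to pass. The 2 counts therefore cannot be read as a difference between the classes.

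Further members with higher values in libraries 2 and 3 included Aars and Mars. Aars, the alanine enzyme, had 83.1, 110 and 103 FPKM against 83.5. It shares its listed span with Exosc6, a subunit of the RNA exosome, which had 38.8, 33.5 and 32.5 FPKM against 32.1. Mars, the methionine enzyme, had 43.5, 59.2 and 58.6 against 45.9. This gene shares its listed span on chromosome 10 with Ddit3, a transcription factor of the stress response, which had 9.27, 24.8 and 33.0 FPKM against 9.47. How reads were divided within these pairs is not given in the sources used here, and the part of the neighbours in the values of Aars and Mars was not tested.

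Tars and Eprs were higher in all 3 libraries by small margins. Tars, the threonine enzyme, had 81.1, 82.9 and 87.4 FPKM against 72.2, a spread of 3.22 (SD, n = 3) around a mean of 83.8. Eprs had 141, 146 and 149 against 133. Cytosolic genes above the control in every knockdown library numbered 5 (Eprs, Nars, Sars, Tars and Yars), and those below it in every library also numbered 5. Over the 11968 features tested, 22.7% lay above the control in all 3 libraries and 22.9% lay below, so 5 of 20 is close to the background in both directions.

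The 5 cytosolic genes below the control in every library were Farsb, Hars, Kars, Rars and Vars. Rars, the arginine enzyme, had 118, 92.9 and 100 FPKM against 119, and Kars had 242, 207 and 241 against 253. In both, library 2 was the lowest. Vars, the valine enzyme on chromosome 17, had 56.8, 67.6 and 58.1 FPKM against 69.6. The authors' deposited tables marked Vars in library 1 alone, with a q-value of 0.0446 there, 1.03 in library 2 and 0.700 in library 3. Library 3 had nearly the same level of Vars as library 1 without a mark. The Cuffdiff p-values of cytosolic members correspond to a median standard error of 0.0627 natural log units in library 1, against 0.151 and 0.139 in libraries 2 and 3, so a mark in library 1 can stand for a smaller change. Hars had 59.3, 63.5 and 62.7 FPKM against 66.5, and Farsb, the other subunit of the phenylalanine enzyme, had 60.0, 58.5 and 60.0 against 61.6.

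Among the remaining cytosolic members Farsa had 35.6, 41.2 and 43.4 FPKM against 42.2. Qars, the glutamine enzyme, had 66.9, 80.5 and 78.9 against 78.1. Both were below the control in library 1 and between 97.7% and 103% of it in libraries 2 and 3. Iars, Lars, Dars and Wars, the isoleucine, leucine, aspartate and tryptophan enzymes, were at 94.1%, 94.9%, 99.8% and 90.8% of the control in library 1. In library 2 they were at 114%, 107%, 110% and 116%, and in library 3 at 126%, 118%, 112% and 103%.

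**Figure D3:**
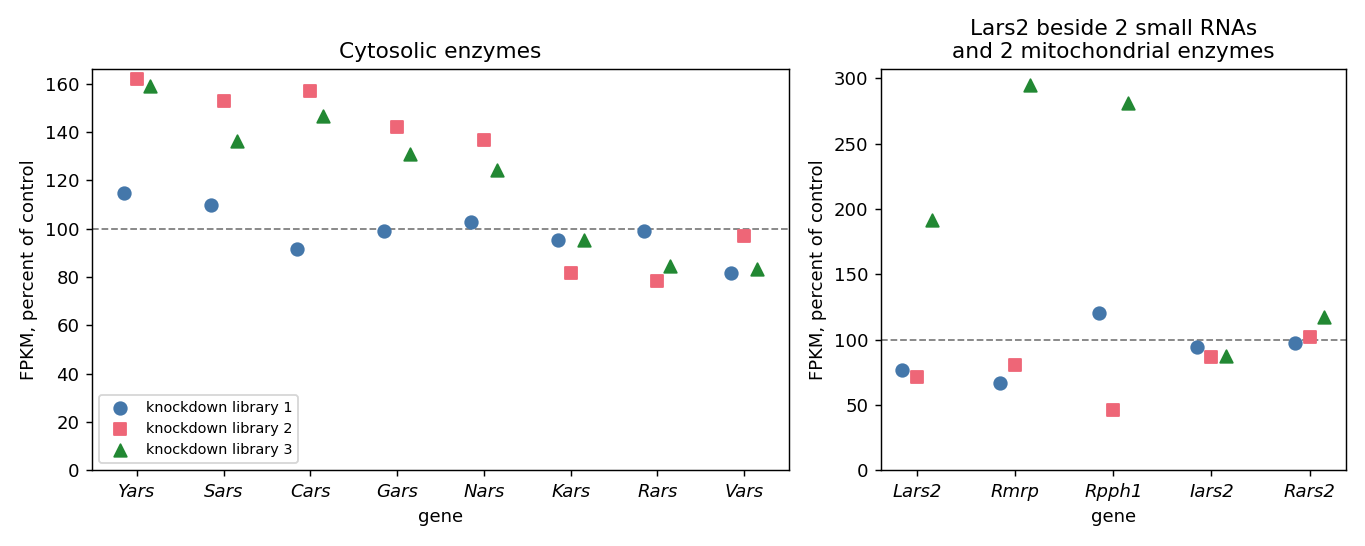
Levels in the 3 knockdown libraries as a percentage of the control (dashed line at 100) for 8 cytosolic genes on the left, and for Lars2 beside the small RNAs Rmrp and Rpph1 and the mitochondrial enzymes Iars2 and Rars2 on the right. Yars, Sars, Cars, Gars and Nars are higher in libraries 2 and 3 than in library 1, and Lars2, Rmrp and Rpph1 are highest in library 3. Lars2 and Rmrp are below the control in libraries 1 and 2, and Rpph1 is below it in library 2.

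Among the mitochondrial enzymes Nars2, the asparagine enzyme, had the highest mean ratio of the class, with 3.57, 5.89 and 5.37 FPKM against 3.75, which places libraries 2 and 3 above the control and library 1 just below. Its unadjusted Cuffdiff p-values were 0.749, 0.142 and 0.222. Vars2, the valine enzyme, had 7.42, 8.01 and 7.62 FPKM against 6.72, and Wars2, the tryptophan enzyme, had 5.26, 5.71 and 5.43 against 4.91. With Mars2 they were above the control in all 3 libraries, at 106% to 119% of it. Fars2, the phenylalanine enzyme, had 4.99, 5.72 and 6.36 FPKM against 5.17, and Hars2 had 8.76, 9.25 and 7.61 against 7.82.

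At the lower end of the class stood Sars2, Cars2, Ears2, Iars2 and Aars2. Sars2, the serine enzyme, had 8.84, 9.29 and 5.51 FPKM against 9.79, so its low mean came from library 3. Cars2, the cysteine enzyme, had 7.79, 7.70 and 9.48 against 10.4. Ears2, the glutamate enzyme, had 7.81, 7.60 and 9.69 against 9.61. Iars2, the isoleucine enzyme, had 28.8, 26.5 and 26.6 against 30.5, and it shares its listed span with Rab3gap2. Aars2, the alanine enzyme, had 8.69, 10.6 and 8.67 against 10.4. None of these had a q-value under 0.05 in any table. The other 4 mitochondrial genes, Pars2, Rars2, Tars2 and Yars2, lay between 78.8% and 118% of the control in every library.

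Lars2 was marked in all 3 tables, but not in 1 direction. It is listed on chromosome 9 from 123276057 to 123371782 (mm9) and its levels were 644, 599 and 1613 FPKM, in library order, with the control at 841. Libraries 1 and 2 were thus at 76.6% and 71.3% of the control, and library 3 at 192%. The q-value in the authors' deposited tables was 0 in each, and the study's rule does not call a gene with marks in both directions. The 3 libraries together gave a mean of 952 ± 573 FPKM (SD, n = 3), and the limma change of 0.02 had a standard error of 0.63 (Benjamini-Hochberg adjusted p = 0.999). Without library 3 the study's rule called it lower, and the limma change was -0.44.

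Rmrp and Rpph1, RNA components of the RNase MRP and RNase P enzymes, were, like Lars2, highest in library 3. They were picked after their values were seen, so the likeness is no independent result. Rmrp had 19.3, 23.5 and 85.8 FPKM against 29.1, and Rpph1 had 16.1, 6.16 and 37.6 against 13.4. In library 1 Rpph1 was above the control, at 121% of it, while Lars2 was below. Neither of these RNAs was marked in any library or met the study's rule, and their part in the value of Lars2 was not tested. The summed level of the other 15 mitochondrial genes was 96.8%, 96.9% and 99.2% of the control, a mean of 97.6% ± 1.36 (SD, n = 3).

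Among the members marked in any table, library 1 had Vars and Lars2, and libraries 2 and 3 each had Yars and Lars2. Over all features with a usable test, 2.43%, 5.24% and 4.62% were marked in libraries 1, 2 and 3.

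The second question was whether the classes moved differently. The median log2 ratio of the cytosolic members was -0.05, 0.16 and 0.20 in libraries 1, 2 and 3. For the mitochondrial members it was -0.05, 0.02 and 0.04, and over the 11968 features tested it was -0.02, 0.03 and 0.01. The cytosolic median exceeded the mitochondrial one by 0.10 ± 0.09 log2 units (SD, n = 3), with differences of -0.00, 0.14 and 0.16 in the single libraries. The difference was thus about as large as its spread between libraries, and library 1 did not show it. Leaving out library 1 gave a mean difference of 0.15, while leaving out library 3 gave 0.07. Of the 20 cytosolic members 5, 14 and 15 were above the control in libraries 1, 2 and 3, and the 14 above it in library 2 were also above it in library 3. That share was 70.0%, against 39.8% of all features above the control in both libraries and 6 of the 16 mitochondrial members. Library 1 had the opposite order, since 5 of the 20 cytosolic members were above the control there, against 45.96% of all features tested. Libraries 2 and 3 are compared with the same control library, so they do not give independent counts. Counting over these libraries alone was not among the planned comparisons. In all 3 libraries 5 of the 20 cytosolic members were above the control, against 22.7% of all features tested.

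Per length, the summed level of the 20 cytosolic genes was 1817, 2100 and 2093 FPKM in libraries 1, 2 and 3 where the control had 1856. This was 108% ± 8.71 of the control (SD, n = 3). Within the 13 pairs, the cytosolic gene had the higher log2 ratio in 8, 9 and 7 pairs in libraries 1, 2 and 3. The pairs of Aars, Cars, Sars, Tars and Yars had this order in all 3 libraries, and those of Hars and Vars had the opposite order in all 3.

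**Figure D4:**
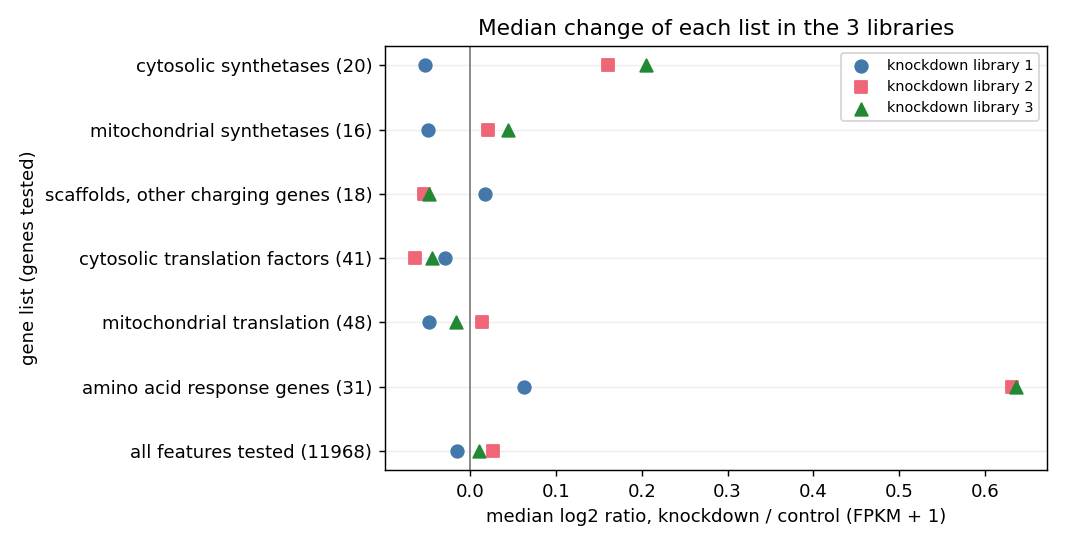
Median log2 ratio of knockdown to control, on FPKM + 1, for 6 gene lists and for all features tested (rows, with the number of genes) in the 3 knockdown libraries (coloured symbols). The cytosolic synthetases are at 0.16 and 0.20 in libraries 2 and 3, above the other translation lists and below the amino acid response genes at 0.63 and 0.64.

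Of 18 measured scaffold and other charging genes 0 were called, with medians of 0.02, -0.05 and -0.05. Over all features that could be called, 1.98% rose and 0.905% fell, so the counts of 0 or 1 in this paragraph are near the background. Aimp1, a scaffold of the multi-synthetase complex, had 150, 135 and 119 FPKM against 140. Eef1e1, another scaffold of that complex, had 61.8, 79.3 and 88.4 against 61.6. Among 42 initiation and elongation factors of the cytosol 1 rose and 1 fell. Eif4a2, an RNA helicase of initiation, rose with 107, 143 and 149 FPKM against 97.9, while Eif4g2, a relative of the initiation scaffold, fell with 312, 282 and 262 against 303. Medians were -0.03, -0.06 and -0.04. Of the 41 factors that passed the filter 4 were above the control in all 3 libraries and 15 were below it in all 3, and 26.8% were above it in library 2, where 53.9% of all features were. None of 48 genes of mitochondrial translation was called, with medians of -0.05, 0.01 and -0.02, and Mrpl12, a protein of the mitochondrial ribosome, had 99.95, 85.3 and 80.3 FPKM against 97.4. Mrpl13, another protein of that ribosome, had 79.2, 89.4 and 96.6 against 92.5.

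Genes of the amino acid response showed the same order of libraries with wider margins. Of 32 measured members 11 rose and 0 fell, against 1.98% and 0.905% of all features that could be called. Medians were 0.06, 0.63 and 0.64 in libraries 1, 2 and 3. Chac1, an enzyme that breaks down glutathione, was at 5.49, 17.0 and 17.0 FPKM against 3.15. Nupr1, a stress-induced chromatin protein, had 2.53, 11.3 and 16.0 against 1.45. Slc7a1, a transporter of cationic amino acids, had 14.4, 27.8 and 32.0 against 12.7, and Gpt2, a mitochondrial alanine transaminase, had 14.0, 35.5 and 30.8 against 14.6. Earlier results of these data had already shown this list to be higher, so it is no independent support.

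Promoters were read to see which members carry the letters of an amino acid response element. The motif TGATGNAA was searched on both strands, where its reverse reads TTNCATCA, in windows from 250 bases before to 50 bases after each RefSeq start (GRCm38.p6). A window was given for 27 of the 36 members, all by symbol except Mars, matched by the newer symbol Mars1. Of the 13 cytosolic members with a window 5 held the motif: Aars, Gars, Iars, Tars and Yars. Of the 14 mitochondrial members with a window 0 did. Over all 32851 windows the share was 3.97%, and over all 27025 gene symbols, counted by gene like the members, it was 4.51%. Of 28 amino acid response genes with a window 9 held the motif. A match is a description of letters, not of a bound site. The stretches below run 5′ to 3′ along the gene, from 120 bases before the start to 20 after, and are shown because these are the members with a match. Capitals mark the motif. Coordinates are GRCm38.p6, for Aars chr8:111033722-111033861 (plus strand), for Gars chr6:55037881-55038020 (plus), for Iars chr13:49682010-49682149 (plus), for Tars chr15:11399639-11399778 (minus) and for Yars chr4:129189783-129189922 (plus).
Aars: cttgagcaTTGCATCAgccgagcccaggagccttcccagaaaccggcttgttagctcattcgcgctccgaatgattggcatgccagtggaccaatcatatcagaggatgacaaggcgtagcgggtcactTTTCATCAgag
Gars: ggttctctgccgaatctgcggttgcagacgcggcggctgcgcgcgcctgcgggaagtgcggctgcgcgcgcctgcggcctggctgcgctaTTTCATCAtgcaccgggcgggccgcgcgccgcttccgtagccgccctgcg
Iars: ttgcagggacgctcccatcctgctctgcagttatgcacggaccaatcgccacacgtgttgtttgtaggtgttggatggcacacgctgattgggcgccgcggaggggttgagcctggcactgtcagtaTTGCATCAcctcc
Tars: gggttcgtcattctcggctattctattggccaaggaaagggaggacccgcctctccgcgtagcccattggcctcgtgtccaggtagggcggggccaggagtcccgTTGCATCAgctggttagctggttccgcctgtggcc
Yars: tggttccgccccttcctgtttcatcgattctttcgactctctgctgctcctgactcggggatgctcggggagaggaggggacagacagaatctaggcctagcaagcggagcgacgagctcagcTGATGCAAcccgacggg

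In Gars, Tars and 1 of the matches of Aars the motif lay before the start, beginning 30, 15 and 112 bases upstream. In Yars, Iars and the other match of Aars it lay just after the start, with its first base at position 4, 8 and 10 of the transcript. The matches of Aars at 112 bases upstream, of Iars and of Tars share the letters TTGCATCA, and that of Yars, TGATGCAA, is the same element on the other strand. All 5 genes were above the control in libraries 2 and 3, where 14 of all 20 cytosolic members were above it in both. Their log2 ratios ran from 0.19 to 0.69 in library 2, with a median of 0.39, and from 0.27 to 0.66 in library 3, with a median of 0.33. In library 1 the median was -0.01.

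The 8 cytosolic members whose window held no such letters were Dars, Eprs, Farsa, Farsb, Kars, Mars, Qars and Sars. Their medians were -0.05, 0.09 and 0.10 in libraries 1, 2 and 3. Of these 8 genes 5 were above the control in library 2 and 6 in library 3. The ranges overlapped, from -0.29 to 0.61 in library 2 and from -0.07 to 0.44 in library 3, and Sars, the second highest cytosolic gene by mean ratio, was in this group. Members with no window given were Cars, Hars, Lars, Nars, Rars, Vars and Wars, with medians of -0.13, 0.09 and 0.05. Of these 7 genes 4 were above the control in library 2 and 4 in library 3. Whether the groups differ was not tested.

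**Figure D5:**
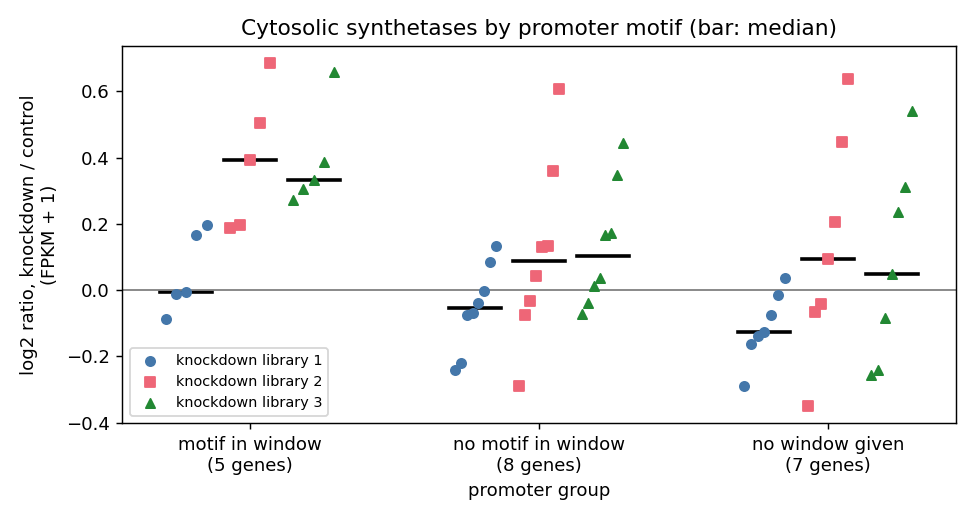
Log2 ratio of knockdown to control, on FPKM + 1, for the 20 cytosolic genes in the 3 libraries (coloured symbols), grouped by whether the promoter window held the motif, with black bars for medians. The 5 genes with the motif are all above 0 in libraries 2 and 3, while the other groups spread over both sides of 0. Of the 8 genes without the motif 5 are above 0 in library 2 and 6 in library 3.

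Grouping by the multi-synthetase complex was added after the values were seen. Its 8 enzymes on the list, Dars, Eprs, Iars, Kars, Lars, Mars, Qars and Rars, had median log2 ratios of -0.07, 0.11 and 0.17 in libraries 1, 2 and 3, and 0 were called. The 12 cytosolic members outside the complex had medians of -0.03, 0.30 and 0.29, and Yars was the 1 called. In library 2 the complex ranged from -0.35 for Rars to 0.36 for Mars, and the others from -0.07 for Farsb to 0.69 for Yars, so the groups overlapped.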

How the data were processed

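RNA-seq of neural precursors gave 3 libraries with Geminin knocked down and 1 control. Alignment and quantification used TopHat, Cufflinks and Cuffdiff on the mm9 build, per the submitters' processing notes, while their versions were not given in the sources used here. There is 1 deposited table per knockdown library. Per the file headers it holds the FPKM of that library and of the control, a p-value from Cuffdiff, a q-value (treated as a score, since some pass 1) and a natural log ratio of control over knockdown, also held as a score and used to check the direction. Separate lists of marked features were left out, being contained in these tables. Listed spans can merge overlapping genes. The control differed by no more than 0.1% between tables for 90.7% to 91.2% of features, and each ratio was taken inside its own table.

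Absolute depth is unknown. Relative depth was read from features too low for a test, where 85.0% to 87.9% of ratios matched, to 0.2%, those of whole reads up to 12. FPKM is not a count, and no count model was used. A call followed the study's rule (marks in at least 2 of 3 tables in 1 direction) over 14477 features usable in at least 2 tables. In addition, log2(FPKM + 1) was modelled with limma 3.58.1 (R 4.3.3), using a trend in the prior variance, over 11968 features usable in all tables with a mean FPKM of at least 1, with Benjamini-Hochberg adjustment at 0.05, and it was checked on simulated data, whose planted changes were larger than any seen in the members. Log2 ratios on this scale understate changes of low genes. Independent experiments are stated for the knockdown libraries, and the control has no replicate.

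Values in every library are given for called or marked members and for the 5 highest and 5 lowest of each class by mean log2 ratio. Of each other list up to 4 called members are named, or the 2 most abundant where none was called. Rules on members and lists were set with earlier results of these data known. Rmrp, Rpph1, C77080, Ddit3, Exosc6 and Rab3gap2 were named after their values were seen, and a planned comparison of protein sequences was not run. Pseudocounts, filters, scaling, the prior, class membership, the rule for calls and each left-out library were varied.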

Additional observations from a re-analysis of the deposited data

How the results depend on the processing

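Calls rested on which tables marked a feature. By the study's rule 286 features were higher and 131 lower, against 758 and 510 with a mark in at least 1 table, 3 and 14 with marks in all 3, 976 and 590 with a log2 ratio of at least 0.5 in at least 2 tables, and 785 and 424 with an unadjusted p under 0.05 in at least 2 tables, an alternative chosen after seeing the data. Leaving out 1 library gave 12 to 272 higher and 22 to 120 lower, the low counts arising without replicate 2 or 3. The count of cytosolic members that rose was 1, and it was 0 with marks in all 3 tables, 2 (Cars and Yars) with the log2 limit, 4 with the unadjusted p, and 0 to 1 with a library left out. Cytosolic members lower numbered 0, and 1 (Vars) with a mark in at least 1 table. Mitochondrial members lower numbered 0, and 0 to 1 with a library left out, Lars2 being called without replicate 3.

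With limma 3 features were higher and 12 lower. With a pseudocount of 0.1 lower calls numbered 6. With a pseudocount of 5 the counts were 0 and 6, with no filter 0 and 4, with a mean FPKM of at least 5 they were 1 and 7, and with no trend 0 and 7. With a library left out they were 1 to 4 and 5 to 24. The cause of these shifts was not tested. In these fits 0 of the 36 members were called. Of 188 alternative values for 21 named members 186 kept their direction and stayed short of the threshold. The exceptions were Lars2, from -0.44 to 0.28 with a library left out, and Farsa, from -0.14 to 0.00199. The cytosolic median of 0.10 was 0.18 without replicate 1, 0.08 without replicate 2 and 0.05 without replicate 3. The cytosolic excess over the mitochondrial median was 0.15, 0.08 and 0.07 in the same order. Centring on the median of all features left that excess at 0.10. No paired analysis was possible because the single control shares a replicate number with 1 knockdown library only.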
